A study of Homo sapiens with 6 samples.

Results

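The genes of this account encode the initiator caspases caspase-8, caspase-9 and caspase-10 (CASP8, CASP9, CASP10), the caspase-9 activator APAF1, the inhibitor of apoptosis proteins XIAP, cIAP1 (BIRC2) and cIAP2 (BIRC3), and the caspase-8 regulator c-FLIP (CFLAR). They were listed by symbol as regulators of caspase activation, and every probe annotated to a listed symbol was taken. Of 8 listed genes, 7 had a probe among 20046 named genes of the array, with 14 probes among 47323. No probe was annotated to BIRC3 in the probe table used here. The samples were cultures of BCP1, BCBL1 and BC1, 3 human cell lines of primary effusion lymphoma, and their RNA was read on Illumina HumanHT-12 expression arrays. The 3-AP group held 1 culture of each line exposed for 48 h to 3-AP at 2.5 µM, and the vehicle group held 1 vehicle control culture of each line, so that every line gave 1 pair of arrays. Nothing in the labels says that any culture was repeated. The p-values and SEs, from limma, combine the spread between the 3 pairs with a spread pooled over all tested probes. For 3-AP these carry 2 residual and 5.54 prior degrees of freedom.

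Triapine, abbreviated 3-AP, blocks the reductase that supplies a cell with deoxyribonucleotides for DNA replication. Primary effusion lymphoma is a B-lineage lymphoma that carries Kaposi sarcoma-associated herpesvirus, and its viral c-FLIP relative is known for activating NF-kB in these cells. BC1 also carries Epstein-Barr virus, which BCP1 and BCBL1 lack. Initiator caspases start apoptosis by different routes. Death receptors recruit FADD, which activates caspase-8 and caspase-10, and c-FLIP competes for the same complex. Cytochrome c released from mitochondria joins APAF1 into the apoptosome, which activates caspase-9. XIAP binds and blocks active caspases, while cIAP1 and cIAP2 are ubiquitin ligases that act at tumor necrosis factor receptors and restrain the non-canonical NF-kB pathway. Much of this control acts on proteins, which arrays do not measure.

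Detection p-values of their own were at hand for 4 arrays, those of BCBL1 and BC1, where 37.0% to 39.2% of probes had a detection p under 0.05. Plasma cell markers were detected on all 4 arrays for 6 of 6 genes, mature B cell markers for 0 of 5 and T and NK cell markers for 0 of 6, with PAX5 detected on none, while myeloid markers were detected on all 4 for 2 of 6, with ITGAM on none. Among 18851 probes kept for testing, the vehicle arrays of BCBL1 and BCP1 differed with an SD of 0.167 on the log2 scale (Pearson r = 0.995 across probes), against an SD of 0.567 to 0.582 between BC1 and either of them. The arrays labelled BCBL1 and BCP1 thus stood close together, and results are also given with both averaged as 1 pair where this changed a call. In the non-normalized table the signals under BCP1 were those of BCBL1, and whether the processed BCP1 arrays come from a separate line was not tested, so the 3 pairs may stand for fewer than 3 independent lines. The array compares RNA per labelled amount, so fewer cells with a transcript and less of it per cell cannot be told apart.

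The promoters of CASP9, APAF1 and BIRC2 are shown because CASP9 moved the same way in every line and because APAF1 and BIRC2 had the responses that differed between BC1 and the other lines. Each window is RefSeq's of GRCh38.p14, from 250 bases before the first listed start site to 50 after, 5′ to 3′, with GC boxes in capitals and, in BIRC2, the cyclic AMP response element as well.
CASP9, chr1:15524166-15524465, minus strand: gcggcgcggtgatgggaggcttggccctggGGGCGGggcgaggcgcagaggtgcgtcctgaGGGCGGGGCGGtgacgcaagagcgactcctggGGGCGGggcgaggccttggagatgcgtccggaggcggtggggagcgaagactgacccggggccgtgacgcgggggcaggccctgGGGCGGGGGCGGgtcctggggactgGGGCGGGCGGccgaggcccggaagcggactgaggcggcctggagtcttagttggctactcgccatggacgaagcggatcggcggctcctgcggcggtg
APAF1, chr12:98645040-98645339, plus strand: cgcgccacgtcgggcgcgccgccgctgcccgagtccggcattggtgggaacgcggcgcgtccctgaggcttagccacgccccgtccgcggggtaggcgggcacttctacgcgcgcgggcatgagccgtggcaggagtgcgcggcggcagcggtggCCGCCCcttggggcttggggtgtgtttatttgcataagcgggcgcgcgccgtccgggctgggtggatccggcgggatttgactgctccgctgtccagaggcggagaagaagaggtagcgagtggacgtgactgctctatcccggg
BIRC2, chr11:102346964-102347263, plus strand: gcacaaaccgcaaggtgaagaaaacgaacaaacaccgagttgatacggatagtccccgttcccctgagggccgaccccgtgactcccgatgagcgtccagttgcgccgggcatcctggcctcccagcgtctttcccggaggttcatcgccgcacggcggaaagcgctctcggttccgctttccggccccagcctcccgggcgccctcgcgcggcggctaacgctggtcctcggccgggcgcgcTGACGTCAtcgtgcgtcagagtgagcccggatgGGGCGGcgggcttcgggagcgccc
The GC box (letters GGGCGG on either strand) occurred 8 times in the CASP9 window, some copies overlapping, and 1 time each in APAF1 and BIRC2. Of 27305 promoters of the same length, 44.6% hold it. The cyclic AMP response element letters TGACGTCA stood in the BIRC2 window at position -7, with the start site at 0, and 1.98% of these promoters hold them. The GC box and this element were chosen after reading the sequences. The kappaB letters, GGG and CC with any 5 bases between them, held by 58.0% of promoters and partly overlapping GC boxes, occurred 5 times in CASP9, 2 times in APAF1 and 4 times in BIRC2. The E2F letters TTTNNCGC, held by 6.90% of promoters, were in none of the windows of the 7 member genes in the table. These matches describe letters and not binding. In the genome annotation CFLAR, CASP10 and CASP8 lie side by side on chromosome 2, and BIRC3 lies next to BIRC2 on chromosome 11.

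The first question was which of these transcripts the lines held at a measurable level. Detection on 2 or more of the 4 arrays was required of a probe, which left 7 of 14 probes and 4 of 7 genes: CASP9, APAF1, BIRC2 and CFLAR. The other 7 probes, 4 of CASP8, 2 of CASP10 and 1 of XIAP, were detected in 1 of 28 probe and array combinations. That detection was of the CASP10 probe ILMN_1797578 on the 3-AP array of BC1, at 157 intensity units and a detection p of 0.02597. Processed signals of these 7 probes lay between 117.3 and 157 on the 3-AP arrays and between 120.2 and 160.7 on the vehicle arrays. The lowest signal of any detected probe was 166.2 on the 3-AP array of BCBL1 and 164 on its vehicle array, and 150.5 on the 3-AP array of BC1 and 152.4 on its vehicle array. For CASP8, CASP10 and XIAP these probes therefore do not show how much of the transcript was present. For BCP1 no detection p of its own was at hand. Fitted without the detection filter, their log2 fold changes ran from -0.10 to 0.05, the lowest adjusted p being 0.584 (limma), which at such signals says little about the transcripts.

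**Figure D1:**
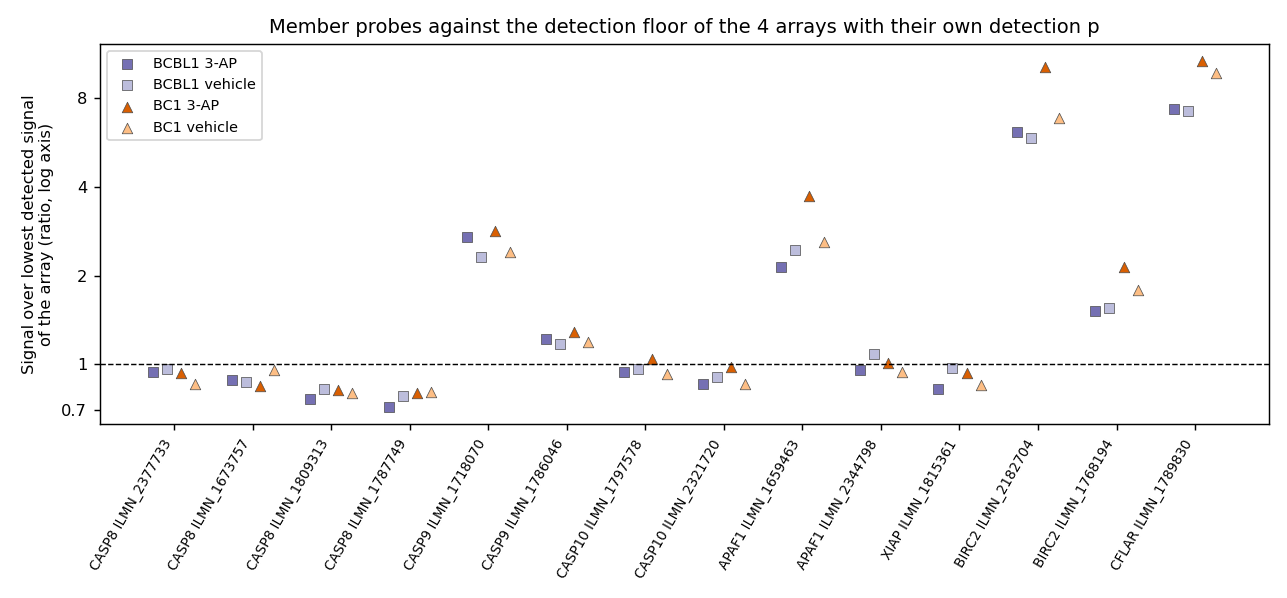
Signal of each of the 14 member probes (x axis) divided by the lowest signal of any detected probe on the same array (y axis, ratio on a log scale), on the 3-AP and vehicle arrays of BCBL1 and BC1, with the dashed line at a ratio of 1. The probes of CASP8, CASP10 and XIAP sit at or below the line apart from the CASP10 probe ILMN_1797578 on the 3-AP array of BC1, and those of BIRC2 (ILMN_2182704) and CFLAR lie farthest above it.

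The kept probes were not equally far above background. All but the APAF1 probe ILMN_2344798, detected on 2 of 4 arrays, were detected on all 4. Probes differ in binding, so their signals are not ordered against each other.

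The main comparison, 3-AP with vehicle within lines, was meant to show the expression response to the drug. No member passed: 0 of 7 kept probes had an adjusted p under 0.05, and 1 had a raw p under 0.05 (limma with cell line as a block, Benjamini-Hochberg over all 18851 kept probes). Across all kept probes 7.53% passed, 3.72% higher and 3.81% lower with 3-AP, and 4951 of 18851 had a raw p under 0.05. The median log2 fold change was 0.06 over the 7 member probes, against -0.01 over all kept probes. The same direction in all 3 lines was seen in 2 member probes, the pair of CASP9 probes, and in 48.3% of all kept probes. Where groups are said below not to overlap, the share of all kept probes that do likewise was not counted. Intensities below are the processed signals as deposited, in the order BCP1, BCBL1 and BC1, while fold changes come from log2 values quantile normalized over the 6 arrays.

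CASP9, the initiator caspase of the mitochondrial route, was the member closest to the threshold. Its probe ILMN_1718070 read 430.6, 448.5 and 428.1 on the 3-AP arrays, against 369.3, 380 and 367.7 on the vehicle arrays. Every 3-AP value was above every vehicle value, and the lines were alike in size, BCP1 having a log2 fold change of 0.23, BCBL1 one of 0.26 and BC1 one of 0.20. The mean was 0.23 ± 0.08 (SE moderated by limma, n = 3 pairs), or 1.17-fold with a 95% interval of 1.03-fold to 1.33-fold. This mean did not pass (limma adjusted p = 0.130), while the responses of the 3 pairs had an SD of only 0.03. Without BC1 it passed at 0.24 (limma adjusted p = 0.0385). That fit rests on BCP1 and BCBL1, which resemble each other, its error is nearly the same for every probe, and 24.7% of all kept probes passed. In the non-normalized signals of BCBL1 and BC1, after background subtraction and quantile normalization, the mean was 0.06. The dimmer CASP9 probe ILMN_1786046 read 195.5, 202.1 and 193.5 on the 3-AP arrays, against 191.1, 191.8 and 181.2 on the vehicle arrays. Its groups did not overlap, by a narrow margin, and its log2 fold change was 0.07 ± 0.08 (limma adjusted p = 0.648).

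APAF1, which holds caspase-9 in the apoptosome, went opposite ways in the lines. Its probe ILMN_1659463 read 371.9, 354.7 and 562.1 on the 3-AP arrays, against 399.4, 401.6 and 396.1 on the vehicle arrays. The vehicle arrays were nearly equal, the 3-AP arrays of BCP1 and BCBL1 lay below all of them, and that of BC1 lay above all of them. The log2 fold change was -0.10 in BCP1, -0.19 in BCBL1 and 0.49 in BC1, with a mean of 0.06 ± 0.14 (SE, limma adjusted p = 0.815). Without BC1 the mean was -0.15 and did not pass either (limma adjusted p = 0.256). The probe ILMN_2344798 lay near the detection limit, at 145.4, 158.8 and 152.4 on the 3-AP arrays, against 160.4, 178 and 143.2 on the vehicle arrays. Its groups overlapped, its signs per line were those of the brighter probe, and its mean was -0.07 ± 0.09 (limma adjusted p = 0.670).

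BIRC2, the cIAP1 gene, showed a similar split. Its probe ILMN_2182704 read 932, 1021.7 and 1534.9 on the 3-AP arrays, against 1050.4, 959.9 and 1049.3 on the vehicle arrays. The groups overlapped, and only the 3-AP array of BC1 lay clear of the other 5 arrays. The log2 fold change was -0.17 in BCP1, 0.08 in BCBL1 and 0.56 in BC1, with a mean of 0.15 ± 0.14 (SE, limma adjusted p = 0.527), and without BC1 it was -0.05. The probe ILMN_1768194 read 244.2, 252.4 and 321.9 on the 3-AP arrays, against 263.1, 255.6 and 272.1 on the vehicle arrays. Here too the 3-AP array of BC1 was the highest of all 6, while the other 3-AP arrays were the lowest. Its mean was 0.04 ± 0.10 (limma adjusted p = 0.859), and -0.06 without BC1.

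CFLAR, which encodes the competitor of caspase-8 at death receptors, had the smallest mean change of the kept probes. Its probe ILMN_1789830 read 1232.3, 1223.7 and 1608.6 on the 3-AP arrays, against 1311.8, 1190.8 and 1485.2 on the vehicle arrays. The groups overlapped, and the BC1 arrays of either group were higher than the arrays of the other lines. The log2 fold change was 0.03 ± 0.09 (SE, limma adjusted p = 0.868), with a 95% interval of 0.89-fold to 1.17-fold, and it was -0.02 without BC1.

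**Figure D2:**
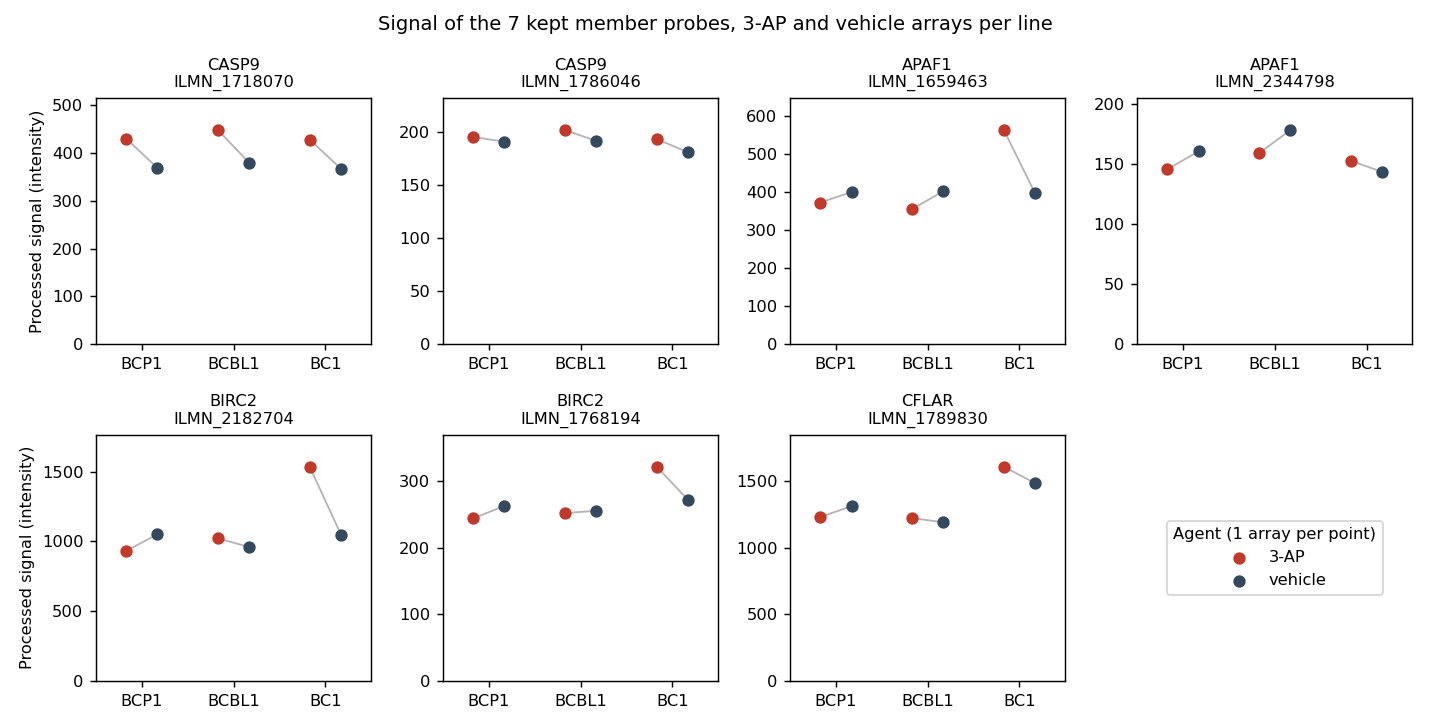
Processed signal intensity (y axis, starting at 0) of the 7 kept member probes in BCP1, BCBL1 and BC1 (x axis), with the 3-AP array left of the vehicle array and a grey line joining the pair. The CASP9 probe ILMN_1718070 was higher with 3-AP in every line, while for the APAF1 probe ILMN_1659463 and the BIRC2 probe ILMN_2182704 the 3-AP array of BC1, at 562.1 and 1534.9, stands above the other 5 arrays.

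**Figure D3:**
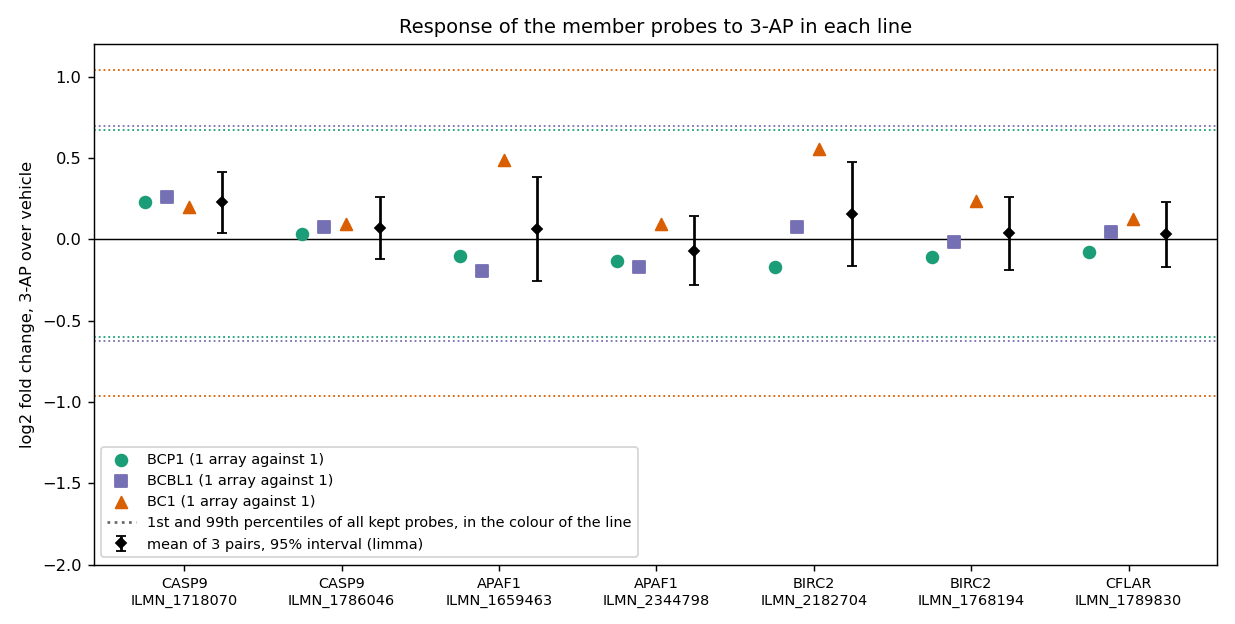
Log2 fold change of 3-AP over vehicle (y axis) for each kept member probe (x axis), as 1 point per line and as the mean of the 3 pairs with its 95% interval from limma (black). Dotted lines mark, in the colour of each line, the 1st and 99th percentiles of all 18851 kept probes in that line, and every member point lies between them.

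The next question was whether the response in BC1 differed from the mean response of the other lines, tested as an interaction term in limma. This contrast was chosen with earlier results of these data known. The interaction called 2 of 7 kept member probes, both higher in BC1, and 13.8% of all kept probes. For APAF1 ILMN_1659463 the log2 fold change was 0.49 in BC1 against a mean of -0.15 in BCP1 and BCBL1, a difference of 0.64 ± 0.16 (SE, limma adjusted p = 0.00151). For BIRC2 ILMN_2182704 it was 0.56 in BC1 against -0.05, a difference of 0.60 ± 0.16 (limma adjusted p = 0.00293). The difference in the APAF1 response was 0.59 against BCP1 alone and 0.68 against BCBL1 alone, and that in the BIRC2 response was 0.73 against BCP1 and 0.48 against BCBL1.

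Their other probes had differences of the same sign and did not pass, at 0.25 for APAF1 ILMN_2344798 (limma adjusted p = 0.346) and 0.30 for BIRC2 ILMN_1768194 (limma adjusted p = 0.225). CFLAR had 0.14 ± 0.16 (limma adjusted p = 0.631), and the CASP9 probes had -0.05 and 0.04. The fit had 1 residual degree of freedom, between BCP1 and BCBL1, and a prior of 5122.59, so that its error is nearly the same for every probe and rests on arrays that resemble each other. After background subtraction the same differences were 0.88 and 0.67, but neither passed (limma adjusted p = 0.239 and 0.284), nor did any of the 18851 probes, with 3269 at a raw p under 0.05. BC1 had the wider spread of responses in general, with 836 probes up and 922 down by at least 1.5-fold, against 347 up and 249 down for BCBL1, and 296 up and 215 down for BCP1. Within BC1, 6.61% of kept probes rose more than APAF1 ILMN_1659463 and 4.95% more than BIRC2 ILMN_2182704.

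Levels were then compared between lines over both agents. None of the 7 member probes passed the moderated F test of limma at an adjusted p under 0.05, against 28.6% of all kept probes, and 1, CFLAR, had a raw p under 0.05. CFLAR averaged 10.60 on the log2 scale in BC1, 10.29 in BCBL1 and 10.26 in BCP1 (F test adjusted p = 0.0708, limma). Taken as a pair, BC1 was above BCP1 by 0.34 ± 0.11 (SE, 1.27-fold, limma adjusted p = 0.0462) and above BCBL1 by 0.32 ± 0.11 (limma adjusted p = 0.0560), while BCBL1 and BCP1 differed by 0.02. Only the gap between BC1 and BCP1 passed, so the order of BCBL1 against either neighbour is not settled for CFLAR. Of all 18851 kept probes, 5515 passed between BC1 and BCP1, and 5939 between BC1 and BCBL1.

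BIRC2 ILMN_2182704 averaged 10.32 in BC1 and 9.91 in BCP1, with BCBL1 between them, and the gap between BC1 and BCP1, 0.41 ± 0.17, did not pass (limma adjusted p = 0.110). APAF1 ILMN_1659463 averaged 8.89 in BC1, 8.56 in BCBL1 and 8.57 in BCP1, while the gap of 0.32 between BC1 and BCBL1 did not pass (limma adjusted p = 0.184). For BIRC2 and APAF1 the vehicle arrays of the lines were close, and the higher BC1 means came with its 3-AP array. CASP9 ILMN_1718070 averaged 8.65 in BC1, 8.70 in BCBL1 and 8.62 in BCP1 (F test adjusted p = 0.785, limma), with no neighbours in this order apart beyond their error. No member probe differed between BCBL1 and BCP1, where 20 of all kept probes did.

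The patterns over the 6 arrays most like those of the members with the widest range were listed by Pearson correlation, as a description across arrays that share lines and agents. For BIRC2 they were NSF (r = 0.995), SGSH (0.991) and ABHD13 (0.990). For APAF1 they were ERAL1 (r = 0.995), TNPO3 (0.994) and PPP1R2 (0.993), and for CFLAR they were DGCR2 (r = 0.999), FBXL5 (0.998) and TP53TG1 (0.997). SGSH, for instance, had a log2 fold change of 1.05 in BC1, against 0.14 in BCBL1 and -0.26 in BCP1, the same order of lines as BIRC2.

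Around the members, 6 lists of 49 pathway genes were read from the same fit, each gene by its brightest kept probe. Of these genes 44 had a probe, 37 were kept, and 6 of the 37 passed, 3 higher and 3 lower with 3-AP. This is 16.2% against 7.53% of all kept probes, which include dim probes, and the lists were chosen with earlier results known. Under the strict filter 5 of 31 passed, against 10.4% of all probes tested. With 1 probe per gene 5 of 37 passed, against 7.58%. Over 14 alternatives the call was lost in 7 each for CASP4, BIRC5, DFFB and RELB. For LMNB1 it was lost in 5 and for TNFRSF10B in 10. All 6 calls were lost when BCP1 and BCBL1 were averaged as 1 pair, after background subtraction and without the line block. In these settings only 55, 55 and 17 of all 18851 kept probes passed. Leaving out BCP1 gave 0 calls, leaving out BCBL1 gave 3 and leaving out BC1 gave 10. The share of all kept probes moved likewise, at 0.33%, 3.74% and 24.7%, so these shifts are not particular to the lists.

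Among the other caspases 1 of 4 kept genes rose and the list median was 0.02. CASP4, an inflammatory caspase that senses lipopolysaccharide inside cells, read 1099.1, 896.3 and 1552.2 with 3-AP in BCP1, BCBL1 and BC1, against 863.5, 586.5 and 962.7 with vehicle. It was higher with 3-AP in each line, by 0.56 ± 0.10 on the log2 scale (SE, 1.48-fold, limma adjusted p = 0.0211), and it differed between lines (F test adjusted p = 0.00949, limma). CASP6, an executioner caspase that cuts lamin A, had -0.08 (limma adjusted p = 0.593), while its other probes both had -0.23. CASP6 also differed between lines, at 9.05 in BC1, 9.54 in BCBL1 and 9.57 in BCP1.

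In the death receptor arm 1 of 7 kept genes rose and the median was 0.20. TNFRSF10B, the TRAIL receptor DR5, read 859.2, 964.3 and 2814.3 with 3-AP in BCP1, BCBL1 and BC1, against 679.2, 736.6 and 1390.2 with vehicle. Each line was higher with 3-AP, most of all BC1, and the mean was 0.58 ± 0.14 (SE, limma adjusted p = 0.0491), a call lost in 10 of 14 alternatives. Without BC1 it was 0.36 and passed (limma adjusted p = 0.000973), in the fit where 24.7% of all kept probes did. In the non-normalized signals of BCBL1 and BC1, background subtracted, it was 0.91. Its other probe had 0.36. FAS, another death receptor, had 0.22 (limma adjusted p = 0.163), and both receptor genes differed between lines with BC1 highest. FAS read 345.5 and 272.7 on the 3-AP and vehicle arrays of BC1, while on the vehicle array of BCBL1 it read 159, below the lowest detected signal of 164, so its level in that line lies at the detection limit. Of the factors released from mitochondria none of 5 passed and 1 had a raw p under 0.05 (limma), with cytochrome c (CYCS) at 0.12 and the protease HTRA2, which binds XIAP, at 0.13.

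Among the other inhibitor of apoptosis genes and regulators 1 of 5 kept genes fell. BIRC5 (survivin), which also acts at centromeres in mitosis, read 1206.1, 1442.1 and 1050.3 with 3-AP in BCP1, BCBL1 and BC1, against 1712.5, 1723.5 and 1496.8 with vehicle. All 3-AP values lay below all vehicle values, and the log2 fold change was -0.42 ± 0.09 (SE, limma adjusted p = 0.0368), with -0.14 at its other probe. XAF1, an antagonist of XIAP, had 0.23 (limma adjusted p = 0.327), and 0.63 in BC1 alone. BIRC6, the largest protein of the family, had 0.00 (limma adjusted p = 0.994).

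The list of caspase substrates, which also holds DFFB, the partner of the substrate DFFA, had 2 of 7 kept genes lower with 3-AP. LMNB1, the lamin B1 gene of the nuclear envelope, read 736, 534.5 and 542 with 3-AP in BCP1, BCBL1 and BC1, against 970.9, 966.9 and 1039.2 with vehicle. Its groups did not overlap, and it changed by -0.74 ± 0.12 (SE, limma adjusted p = 0.0179). DFFB, the nuclease that cuts DNA in apoptosis, changed by -0.40 ± 0.09 (limma adjusted p = 0.0378). Its change was -0.78 after background subtraction of the processed signals, and -0.05 in the non-normalized signals of BCBL1 and BC1, also background subtracted. Its inhibitor DFFA had 0.16 (limma adjusted p = 0.290). The DNA repair enzyme gene PARP1 had -0.25 and the chromatin condensation factor gene ACIN1 -0.11, and neither passed. LMNA, which encodes lamins A and C, had 0.42 ± 0.17 (limma adjusted p = 0.178), with 0.98 in BC1, -0.03 in BCBL1 and 0.30 in BCP1. Without BCBL1 it passed at 0.64 (limma adjusted p = 0.0476), and without BC1 it was 0.13.

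In the list of NF-kB subunits and feedback genes 1 of 9 rose with 3-AP, and 7 of 9 differed between lines, against 28.6% of all kept probes. RELB, the non-canonical NF-kB subunit, read 301.4, 293 and 726.9 with 3-AP in BCP1, BCBL1 and BC1, against 243, 211.4 and 539.7 with vehicle. It was higher with 3-AP in each line, by 0.41 ± 0.09 (SE, 1.33-fold, limma adjusted p = 0.0340), and highest in BC1 under either agent. The RELB change was 0.70 after background subtraction of the processed signals and 0.14 in the non-normalized signals, also background subtracted. The feedback inhibitor gene NFKBIA stood at 13.19 in BC1, 9.60 in BCBL1 and 9.38 in BCP1. TNFAIP3, the gene of the ubiquitin-editing enzyme A20, stood at 10.50 in BC1, 8.02 in BCBL1 and 7.69 in BCP1. Their 3-AP changes of 0.39 and 0.55 did not pass (limma adjusted p = 0.0591 and 0.0749). Without BC1 NFKBIA passed at 0.50 (limma adjusted p = 1.32e-06) and TNFAIP3 at 0.33 (limma adjusted p = 0.00339). That fit has 1 residual degree of freedom and nearly the same error for every probe, and 24.7% of all kept probes passed in it. TNFAIP3 passed there although its change was 0.10 in BCP1 and 0.56 in BCBL1. NFKBIE, NFKB2 and NFKB1 also differed between lines with BC1 highest, and their 3-AP changes were -0.22, 0.19 and -0.19, of which NFKB1 passed without BC1 at -0.24 (limma adjusted p = 0.0367). CFLAR, a known NF-kB target, was higher in BC1 than in BCP1 by 0.34 (limma adjusted p = 0.0462). Its gap of 0.32 between BC1 and BCBL1 did not pass (limma adjusted p = 0.0560), nor did its F test (adjusted p = 0.0708, limma). Whether the CFLAR level follows NF-kB was not tested.

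**Figure D4:**
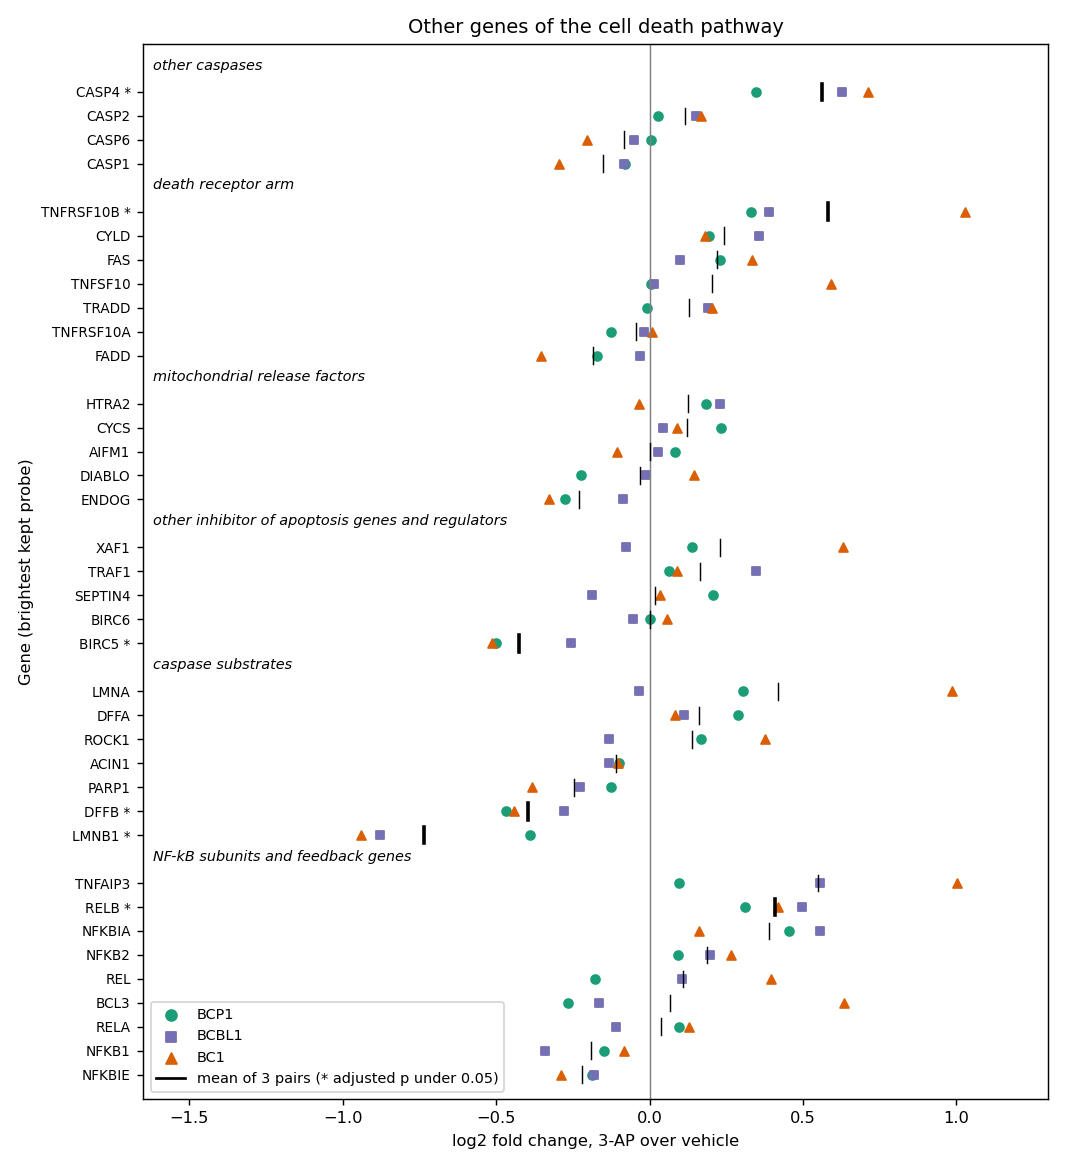
Log2 fold change of 3-AP over vehicle (x axis) for the 37 kept genes of the 6 pathway lists (y axis), 1 point per line, with a vertical bar at the mean of the 3 pairs, thick and starred where the adjusted p is under 0.05. CASP4, TNFRSF10B and RELB are the starred genes above 0, and BIRC5, DFFB and LMNB1 those below.

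The BC1 interaction called 7 of the 37 pathway genes, against 13.8% of all kept probes, all with the higher response in BC1. Among the genes named here these were TNFRSF10B at a difference of 0.67, XAF1 at 0.60, LMNA at 0.85 and TNFAIP3 at 0.68. As with APAF1 and BIRC2, none passed after background subtraction.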

How the data were processed

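Each of 6 arrays held RNA of 1 culture, 3 with 3-AP and 3 with vehicle. Per the labels' protocols, TriZol RNA was labelled as cRNA. Not given in the sources used here are the scanner software, background step and normalization. The authors deposited processed signal intensity values for 47323 probes, whose medians are equal within a line and not across lines, and a non-normalized table with a detection p-value per probe, per the file headers. There the BCP1 signals were identical to the processed signals of BCBL1 for 100% of probes, and the p-values to those of BCBL1 for 99.9852% (vehicle) and 99.9894% (3-AP), so detection is used for 4 arrays. Intensities were therefore taken from the processed table, quantile normalized over the 6 arrays and put on the log2 scale, with no background subtracted, which makes fold changes of dim probes smaller. Of all probes, 13 with a signal of 0 were left out, and 18851 detected (p under 0.05) on at least 2 of 4 arrays were kept. Tests used lmFit and eBayes of limma 3.58.1 in R 4.3.3, with Benjamini-Hochberg at 0.05 over all kept probes. Simulated arrays with independent errors were also fitted, which cannot show how errors shared between BCP1 and BCBL1 would act. The number of arrays limits precision.

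Symbols come from the platform's probe annotation. Members, lists and the BC1 contrast were chosen with earlier results of these data known. Every probe of the members is given; of each list, genes past the threshold for agent or line are named (at most 6), otherwise the 2 with the smallest raw p. Replicate numbers stand for lines, so they pair the arrays: the deviations of the 3-AP and vehicle arrays of a line correlated at 0.776 (BCP1), 0.820 (BCBL1) and 0.870 (BC1), and at 0.640 and 0.659 when BCP1 and BCBL1 were crossed. Alternatives changed the table, background, filter, feature, variance prior, block and replicates. The non-normalized signals of BCBL1 and BC1 were background subtracted and quantile normalized before they were fitted.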

Additional observations from a re-analysis of the deposited data

Results flagged for a closer look

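The response of APAF1 (ILMN_1659463) to 3-AP was 0.635 higher on the log2 scale in BC1 than the mean of BCP1 and BCBL1, by the limma interaction test (adjusted p = 0.00151; 0.00102 to 0.239 over the alternatives). The response of BIRC2 (ILMN_2182704) was 0.604 higher in BC1 by the same test (adjusted p = 0.00293; 0.000676 to 0.284 over the alternatives). For APAF1 the 3-AP array was above vehicle in BC1 and below it in BCBL1 and BCP1; for BIRC2 it was above in BC1 and BCBL1 and below in BCP1. The wider spread of all BC1 responses, given with these results, was not tested as their source.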

How the results depend on the processing

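The count of member probes called for 3-AP was 0 under every alternative but the one without BC1, and leaving out each line gave 0 to 1. The number of all kept probes called was 1420, and 55 after background subtraction, 0 in the non-normalized signals of BCBL1 and BC1 (2184 at a raw p under 0.05, limma), 63 without BCP1, 705 without BCBL1, 4650 without BC1, 55 with BCP1 and BCBL1 averaged, 940 with line as a random block and 17 with no replicate block. No member call changed without the block. The count of members differing between lines was 0 throughout (0 to 2 at a raw p under 0.05, limma), while 5383 calls over all kept probes became 971 without BC1, 3557 under the strict filter, which tests fewer probes, and 0 in the non-normalized signals. The BC1 response called 2 member probes except after background subtraction, where it called 0 (3 at a raw p under 0.05) and 0 of all kept probes against 2605; the cause was not tested. The pathway lists had 6 calls, 0 after background subtraction, 0 in the non-normalized signals, 0 with the lines averaged, 0 with no replicate block, 1 with a random block, and 0 to 10 when each line was left out. Leaving out each line gave log2 fold changes of -0.148 to 0.192 for APAF1 ILMN_1659463, -0.0473 to 0.317 for BIRC2 ILMN_2182704, -0.0637 to 0.108 for BIRC2 ILMN_1768194, -0.0182 to 0.0849 for CFLAR and -0.0263 to 0.0295 for BIRC6, each below 0 only without BC1; the sign changed too for BIRC6 in the non-normalized signals (-0.00315). Alternatives for the pathway genes, for the second member probes and for single BC1 responses were added after seeing the data. Without BCP1 or BCBL1 the BC1 contrast has no residual degree of freedom and no test. Signals near background limit what CASP8, CASP10, XIAP and APAF1 ILMN_2344798 can show.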
